A study of Mus musculus with 8 samples.

Results

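The transcription factor genes Foxa1, Sim2, Dlx5, Gata2, Gata3, Sox9, Elf3, Ehf and Spdef, known from the luminal lineage of the prostate or related epithelia, were followed in bulk RNA-seq of the mouse ventral prostate. They are 9 of 36333 genes in the expression table, and all 9 were among the 13080 genes tested, those whose TPM (a share of the library corrected for transcript length) reached 1 or more in 4 or more of 8 samples. The 9 genes were chosen by name and family with their levels in these samples already known, so their differences between genotypes are given as a description, without a test. The samples were ventral lobes of 4 probasin-hSKP2-KI mice and 4 wild-type (WT) mice, all listed at 12 months of age, with 1 library per mouse. The paper describes knock-in males as offspring of FVB/N wild-type males and heterozygous knock-in females. In the knock-in, a P2A sequence and the coding sequence of human SKP2, the substrate-recognition subunit of an SCF ubiquitin ligase, were placed in exon 1 of the endogenous mouse probasin gene Pbsn, so that the probasin promoter drives SKP2 in the prostate epithelium. Several knock-in lines were made, and the sources used here do not state which of them gave the RNA.

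Luminal cells are the secretory cells that line the prostate ducts. Their identity depends on factors that open chromatin and on factors that bind the sites so exposed, and FOXA1 and GATA2 are among the best known of them. The ETS factors ELF3, EHF and SPDEF belong to a branch of the ETS family found in epithelia, and SOX9 is needed when prostate buds form in the embryo.

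The libraries carried the labels' genotype in their transcripts. Skp2 lay at 37.3 to 60.6 TPM in hSKP2-KI and at 1.05 to 2.27 in WT, and Pbsn lay at 93.0 to 174 in hSKP2-KI and at 3979.8 to 9232 in WT. Skp2 is the mouse gene, and the paper mapped reads to the mouse genome. Human SKP2 reads placed on it and reads of endogenous Skp2 cannot be told apart. TPM values are shares of a library, and 3 ventral-lobe secretory genes, Sbp, Sbpl and Spink1, held 32.9% ± 1.01 (SD, n = 4) of all TPM in hSKP2-KI and 43.1% ± 2.48 (SD, n = 4) in WT. The median difference over all 13080 tested genes was 0.23 on the log2(TPM + 1) scale, hSKP2-KI minus WT, and -0.02 after median-ratio scaling, in which each library is divided by its median ratio to the mean library. Values on both scales are therefore given for each of the 9 genes and for some of the others, and the reads behind each TPM value were not given. In bulk tissue, fewer cells of a type and less RNA per cell cannot be told apart.

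**Figure D1:**
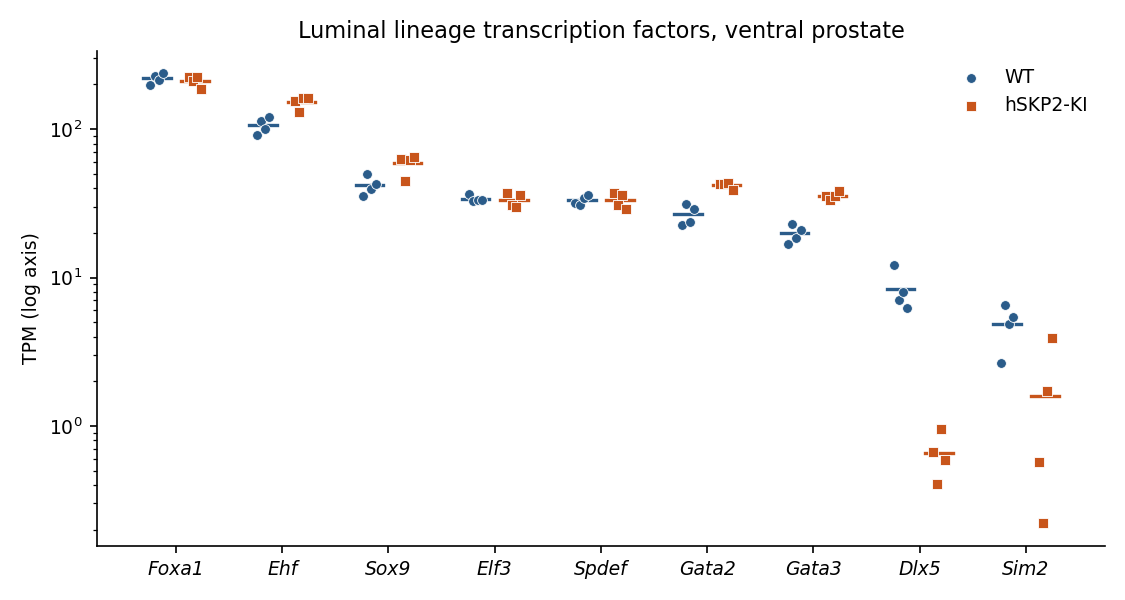
TPM of the 9 luminal factors in each library on a log axis, hSKP2-KI and WT side by side, with 1 point per mouse (n = 4 each) and a bar at the mean. The groups do not overlap for Dlx5, which is lower in hSKP2-KI, nor for Gata2, Gata3 and Ehf, which are higher.

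Foxa1 encodes the forkhead pioneer factor that opens chromatin at luminal genes. RefSeq places it on chromosome 12 at 57540628 to 57548029 (GRCm38.p6). It was the most abundant of the 9 genes, and only 2.64% of tested genes had a higher mean in WT. Its TPM was 223, 211, 223 and 186 in hSKP2-KI replicates 1 to 4, and 197, 229.8, 213 and 238 in WT replicates 1 to 4. The groups overlapped, with means of 211 ± 17.6 and 219 ± 18.1 (SD, n = 4), and the log2 difference was -0.06 ± 0.09 (SE). After median-ratio scaling all 4 hSKP2-KI values lay below all 4 WT values, with a log2 difference of -0.34 ± 0.09 (SE). The share of TPM held by Foxa1 thus overlapped between genotypes, while its level relative to the bulk of expressed genes did not.

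Gata2 and Gata3 encode zinc-finger factors that bind the GATA motif; GATA2 is best known from blood progenitors and prostate epithelium, and GATA3 is best known from mammary luminal cells and T cells. Gata2 (chromosome 6, 88193891 to 88207032) measured 42.9, 42.5, 43.5 and 38.8 TPM in hSKP2-KI replicates 1 to 4 and 22.6, 31.2, 23.8 and 29.0 TPM in WT replicates 1 to 4. Every hSKP2-KI library was above every WT library, the means were 41.9 ± 2.11 and 26.7 ± 4.10 (SD, n = 4), and their ratio was 1.57. Gata3 (chromosome 2, 9857078 to 9887953) measured 35.7, 33.1, 35.7 and 38.1 TPM in hSKP2-KI and 16.9, 22.9, 18.6 and 21.0 TPM in WT. Again no hSKP2-KI library fell within the WT range, and the means of 35.7 ± 2.04 and 19.8 ± 2.67 (SD, n = 4) had a ratio of 1.80. The log2 differences were 0.64 ± 0.11 (SE) for Gata2 and 0.82 ± 0.10 (SE) for Gata3, and 0.37 ± 0.08 and 0.55 ± 0.07 after median-ratio scaling. Both GATA genes stayed above WT without overlap on either scale. The coefficient of variation of Gata2 was 5.03% among hSKP2-KI mice and 15.4% among WT mice, and that of Gata3 was 5.72% and 13.4%; the difference in spread was not tested. Counting was not stated to use strand, so reads of Gata3 and of the overlapping noncoding genes 4930412O13Rik and 9230102O04Rik, and of Gata2 and the overlapping Gm38708, cannot be told apart.

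The promoters of these genes are shown because Gata2 and Gata3 were the members that lay higher without overlap on both scales. RefSeq promoter windows (GRCm38.p6) were found for 5 of the 9 genes, namely Foxa1, Gata2, Gata3, Elf3 and Spdef. The windows below hold the 250 bases before a RefSeq start, read 5′ to 3′ on the gene's strand, at chr6:88193641-88193890 (plus strand) for the upstream start of Gata2 and at chr2:9878601-9878850 (minus strand) for Gata3. The Gata2 window shown and the Elf3 window border the RefSeq spans of their genes. The Gata3, Foxa1 and Spdef windows lie inside the spans given here, so each belongs to a start within the gene. Capitals mark a match to the ETS letters searched.
Gata2: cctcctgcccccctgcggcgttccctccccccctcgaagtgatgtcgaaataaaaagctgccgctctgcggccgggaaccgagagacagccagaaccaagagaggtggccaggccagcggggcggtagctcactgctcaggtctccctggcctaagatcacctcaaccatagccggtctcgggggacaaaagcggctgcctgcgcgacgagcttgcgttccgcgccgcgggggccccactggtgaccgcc
Gata3: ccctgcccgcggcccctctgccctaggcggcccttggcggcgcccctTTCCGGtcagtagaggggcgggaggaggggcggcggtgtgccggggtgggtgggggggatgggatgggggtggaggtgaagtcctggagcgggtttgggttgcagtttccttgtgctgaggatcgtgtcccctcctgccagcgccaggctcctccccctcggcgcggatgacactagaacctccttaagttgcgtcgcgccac
The letters searched on both strands were TGTTTAC for forkhead factors, AGATAA for GATA factors and CCGGAA for ETS factors. Of 32817 promoter windows of the same length, 3.16% held the forkhead letters, 9.99% the GATA letters and 12.0% the ETS letters. The Gata2 window held none of them, and the Gata3 window held 1 ETS match 203 bases before the start. The Foxa1 window held 1 forkhead match 141 bases before the start, and the Elf3 and Spdef windows held none. Both GATA windows were rich in G and C, at 67.2% and 70.0%, against a median of 52.4% over all windows. A match is a description of these letters and was not tested as a binding site.

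Sox9 encodes an HMG-box factor of epithelial progenitors, expressed in prostate buds, and lies on chromosome 11 at 112782210 to 112787757. Its TPM was 62.8, 44.6, 62.2 and 65.1 in hSKP2-KI replicates 1 to 4 and 35.7, 49.6, 39.4 and 42.4 in WT replicates 1 to 4. Of these hSKP2-KI libraries, 3 lay above the WT range and replicate 2 lay inside it. The means were 58.7 ± 9.48 and 41.8 ± 5.92 (SD, n = 4), a ratio of 1.41, and the log2 difference was 0.48 ± 0.13 (SE), or 0.20 ± 0.12 after median-ratio scaling.

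Elf3, Ehf and Spdef encode the epithelium-specific ETS factors. Ehf (chromosome 2, 103263431 to 103303275) measured 154, 130.2, 163 and 163 TPM in hSKP2-KI replicates 1 to 4 and 91.7, 113, 99.7 and 121 TPM in WT replicates 1 to 4. All hSKP2-KI values were above all WT values, with means of 153 ± 15.6 and 107 ± 13.3 (SD, n = 4) and a ratio of 1.43. Its log2 difference was 0.52 ± 0.11 (SE), and 0.23 ± 0.09 after median-ratio scaling, where the groups overlapped. Elf3 (chromosome 1, 135253574 to 135258472) measured 37.0, 30.7, 29.7 and 35.9 TPM in hSKP2-KI and 36.8, 32.9, 33.3 and 33.3 TPM in WT. Spdef (chromosome 17, 27714446 to 27731003), whose product drives goblet-cell secretory genes in other organs, measured 36.9, 30.7, 35.8 and 29.1 TPM in hSKP2-KI and 31.6, 30.7, 34.3 and 35.8 TPM in WT. For both genes the hSKP2-KI values lay on either side of the WT values. The log2 differences were -0.04 ± 0.09 (SE) for Elf3 and 0.00 ± 0.10 (SE) for Spdef, and -0.31 ± 0.11 and -0.28 ± 0.11 after median-ratio scaling, with overlapping groups on both scales.

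Dlx5 encodes a distal-less homeodomain factor known from bone and craniofacial development and lies on chromosome 6 at 6877801 to 6882068. Its TPM was 0.665, 0.409, 0.950 and 0.588 in hSKP2-KI replicates 1 to 4 and 12.2, 7.0, 7.97 and 6.19 in WT replicates 1 to 4. The highest hSKP2-KI library was far below the lowest WT library. The mean was 8.33 ± 2.66 in WT and 0.653 ± 0.225 in hSKP2-KI (SD, n = 4), a ratio of 12.8 of WT over hSKP2-KI. The log2 difference was -2.47 ± 0.19 (SE) with 1 TPM added before the logarithm and -3.49 ± 0.26 (SE) with 0.1 added, and -2.65 ± 0.22 after median-ratio scaling. Every hSKP2-KI library was below the TPM minimum of 1, so Dlx5 entered the tested genes through its WT libraries alone.

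Sim2 encodes a bHLH-PAS factor that pairs with ARNT, and lies on chromosome 16 at 94085104 to 94127032. Its TPM was 0.568, 0.221, 1.72 and 3.90 in hSKP2-KI replicates 1 to 4 and 2.65, 6.51, 4.83 and 5.41 in WT replicates 1 to 4. The groups overlapped through hSKP2-KI replicate 4, which lay above WT replicate 1. The means were 1.6 ± 1.66 and 4.85 ± 1.63 (SD, n = 4), a ratio of 3.03 of WT over hSKP2-KI. The log2 difference was -1.33 ± 0.38 (SE), -1.52 ± 0.36 after median-ratio scaling and -2.08 ± 0.64 with 0.1 TPM added. Sim2 was the most variable member among hSKP2-KI mice, with a coefficient of variation of 104% against 33.5% among WT mice.

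The threshold used for all genes was an adjusted p under 0.05 in limma, with Benjamini-Hochberg adjustment over the 13080 tested genes. On TPM as deposited, 4 of the 9 members were past it on the higher side (Gata2, Gata3, Sox9 and Ehf), where 32.7% of all tested genes were, and 2 on the lower side (Sim2 and Dlx5), where 1.23% of all tested genes were. After median-ratio scaling, 2 were past it on the higher side (Gata2 and Gata3) against 6.64% of all tested genes, and 3 on the lower side (Foxa1, Sim2 and Dlx5) against 4.76%. Nothing is read from these counts, since the members were selected with this contrast known. The groups did not overlap for 4 of 9 members as deposited (Gata2, Gata3, Ehf and Dlx5), where 35.1% of tested genes did not, and for 4 of 9 after scaling (Gata2, Gata3, Foxa1 and Dlx5), where 19.6% did not. The median log2 difference of the 9 members was 0.00 as deposited and -0.28 after scaling. The place of Sim2 and Sox9 past the threshold rested on particular libraries. Sim2 was past it in 3 of the 8 fits that left out 1 library, and missed it without WT replicate 2 (-1.19), WT replicate 3 (-1.32), WT replicate 4 (-1.27), hSKP2-KI replicate 1 (-1.16) or hSKP2-KI replicate 2 (-1.04). Sox9 was past it in 4 of 8, and missed it without WT replicate 1 (0.41), WT replicate 3 (0.45), hSKP2-KI replicate 3 (0.44) or hSKP2-KI replicate 4 (0.42).

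**Figure D2:**
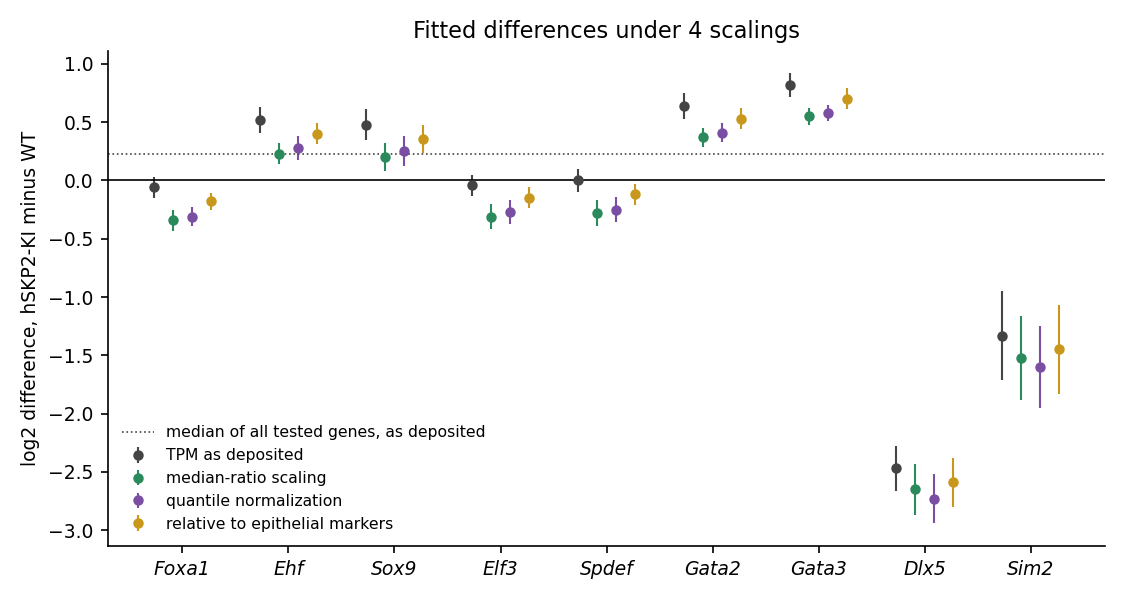
Log2 difference, hSKP2-KI minus WT, of each luminal factor on TPM as deposited and after median-ratio scaling, quantile normalization or centring on epithelial markers, with bars of 1 SE. The solid line marks no difference and the dotted line the median of 0.23 over all tested genes as deposited. Dlx5 and Sim2 are below and Gata2 and Gata3 above the solid line on each scale, whereas Foxa1, Elf3 and Spdef move from near that line to -0.34, -0.31 and -0.28 after median-ratio scaling.

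The order of the levels differed in part between the genotypes. By mean TPM, which is corrected for transcript length, WT ran Foxa1, Ehf, Sox9, Elf3, Spdef, Gata2, Gata3, Dlx5 and Sim2 from high to low. In WT the ranges of neighbours overlapped for Sox9 with Elf3, Elf3 with Spdef, Spdef with Gata2, Gata2 with Gata3, and Dlx5 with Sim2. In hSKP2-KI the order was Foxa1, Ehf, Sox9, Gata2, Gata3, Elf3, Spdef, Sim2 and Dlx5, so both GATA genes stood before Elf3 and Spdef, and Dlx5 came last. There the overlapping neighbours were Gata3 with Elf3, Elf3 with Spdef, and Sim2 with Dlx5.

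Ratios of TPM between members of the same library are not changed by a scaling that divides the whole library by 1 factor, such as median-ratio scaling, though quantile normalization can change them. The Gata2 to Foxa1 ratio was 0.192 to 0.209 in hSKP2-KI and 0.112 to 0.136 in WT, with means of 0.199 ± 0.00752 and 0.121 ± 0.0106 (SD, n = 4). Gata3 to Foxa1 was 0.157 to 0.205 in hSKP2-KI and 0.0855 to 0.0998 in WT. Neither ratio overlapped between genotypes, and the fold differences of the means were 1.65 and 1.89. Gata3 to Gata2, by contrast, was 0.780 to 0.983 in hSKP2-KI and 0.724 to 0.781 in WT, ranges that touched. Among the ETS genes, the Ehf to Elf3 ratio was 4.17 to 5.50 in hSKP2-KI and 2.49 to 3.64 in WT, without overlap. Elf3 to Spdef was 0.830 to 1.23 in hSKP2-KI and 0.932 to 1.16 in WT. Ehf made up 69.6% ± 2.12 of the summed TPM of the ETS genes in hSKP2-KI and 61.2% ± 3.29 in WT (SD, n = 4). A ratio shows unequal levels and does not say which of its genes moved.

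**Figure D3:**
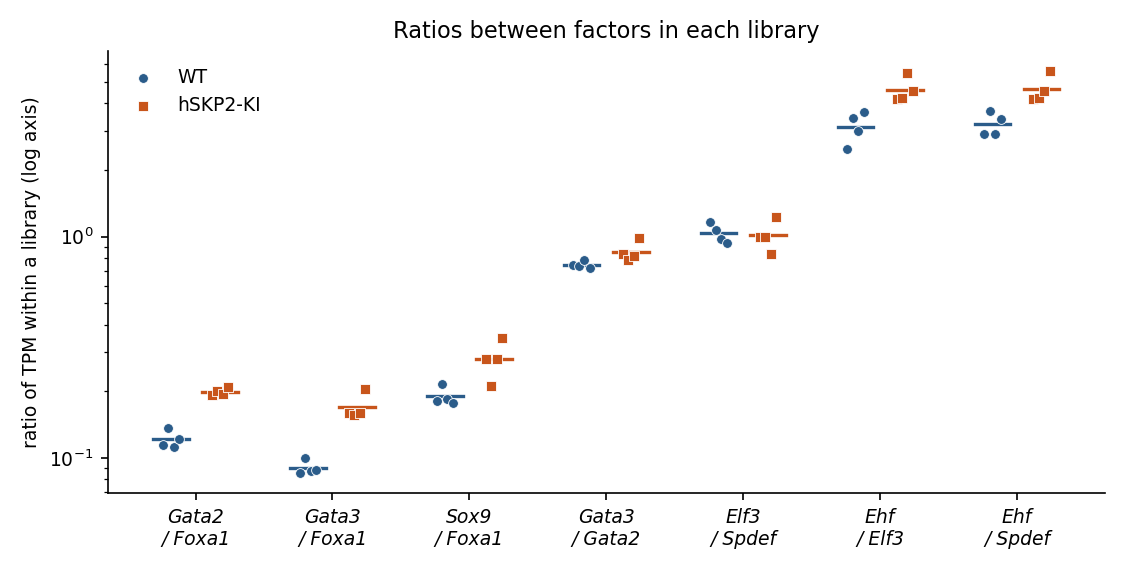
Ratios of TPM between luminal factors within each library, with 1 point per mouse (n = 4 per genotype) and a bar at the mean, on a log axis. Gata2 to Foxa1, Gata3 to Foxa1 and Ehf to Elf3 are separated between genotypes, and Elf3 to Spdef overlaps.

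Relatives of the members in the same families mostly lay at low levels in this tissue. Of 18 family relatives, 13 were below the filter, where the highest value in any library was 1.39 TPM, and Foxa3 and Dlx2 were listed at 0 in all libraries. Foxa2, a forkhead factor of neuroendocrine and embryonic prostate epithelium, reached at most 0.345 TPM. Elf5, an ETS gene 109 kb from Ehf on chromosome 2, lay at 0.732 ± 0.184 TPM in hSKP2-KI and 0.458 ± 0.314 in WT (SD, n = 4). Of the 5 relatives tested, Elf4, a broadly expressed ETS factor, rose from 5.06 ± 0.845 TPM in WT to 7.20 ± 0.532 in hSKP2-KI (SD, n = 4; log2 difference 0.45 ± 0.12 SE, limma adjusted p = 0.0202), and 0 fell, also at an unadjusted p under 0.05. Past the adjusted threshold 32.7% of all tested genes rose and 1.23% fell. After median-ratio scaling 0 of the 5 passed in either direction, and 0 passed at an unadjusted p under 0.05. The shares over all tested genes were then 6.64% higher and 4.76% lower. The median log2 difference of the 5 was 0.29 beside 0.23 for all tested genes, and 0.11 beside -0.02 after scaling.

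Other transcription factors of prostate and stratified epithelia were better represented. Of 29 such genes 27 were tested, 11 rose and 0 fell in limma, with 16 higher and 0 lower at an unadjusted p under 0.05. Among all tested genes 32.7% rose and 1.23% fell past the adjusted threshold. The median of the 27 was 0.38 beside 0.23 for all tested genes. Klf5, a Krüppel-like factor of proliferating epithelium, rose from 20.2 ± 4.69 to 41.0 ± 4.94 TPM (log2 difference 1.00 ± 0.16 SE, limma adjusted p = 0.0022). Runx1 rose from 3.81 ± 0.562 to 6.75 ± 0.519 TPM (0.69 ± 0.12, limma adjusted p = 0.00309). Both also passed after median-ratio scaling, at 0.73 (limma adjusted p = 0.0105) and 0.46 (limma adjusted p = 0.0167), and neither overlapped between genotypes on either scale. Barx2 (6.78 ± 2.80 against 2.74 ± 0.532 TPM, limma adjusted p = 0.0124) and Klf4 (19.9 ± 3.08 against 11.8 ± 3.55 TPM, limma adjusted p = 0.0136) rose as deposited and missed the threshold after scaling, at adjusted p = 0.0564 and 0.0732. After scaling, 2 of the 27 passed on the higher side and 3 on the lower side, namely Grhl1 (-0.27), Tfap2a (-0.33) and Bhlha15 (-0.49), with a median of 0.11 beside -0.02. The shares over all tested genes after scaling were 6.64% higher and 4.76% lower.

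Hoxb13 and Trp63, defining factors of prostate epithelium, were read whatever their values. Hoxb13, the posterior homeobox gene of the prostate, lay at 620 ± 49.3 TPM in hSKP2-KI and 681 ± 69.5 in WT (SD, n = 4), a difference of -0.13 ± 0.09 (SE; limma adjusted p = 0.265). It was at -0.42 after median-ratio scaling (adjusted p = 0.0617) and past the threshold after quantile normalization (-0.40, adjusted p = 0.0249) and after leaving out the 20 most abundant genes (-0.38, adjusted p = 0.0369). Trp63, the basal-cell factor, lay at 10.5 ± 2.94 and 7.62 ± 0.780 TPM (limma adjusted p = 0.0915).

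**Figure D4:**
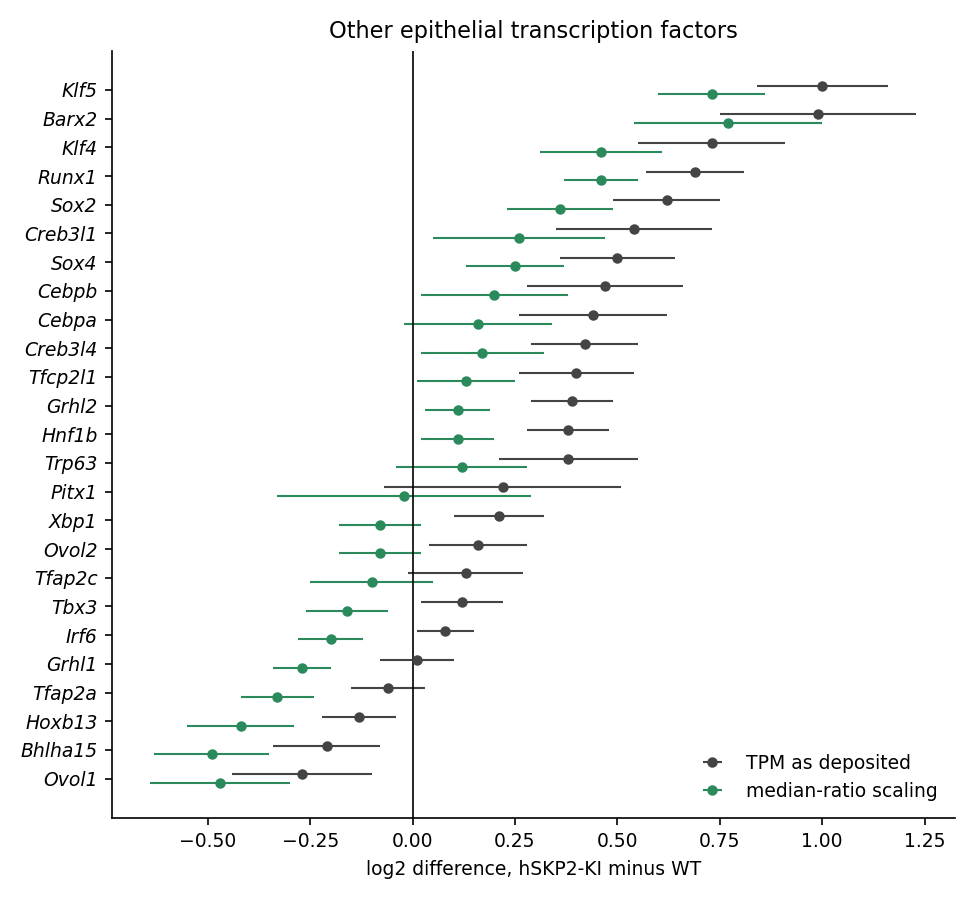
Log2 difference, hSKP2-KI minus WT, of tested epithelial factors outside the 9 members, with bars of 1 SE, as deposited and after median-ratio scaling. Klf5 and Runx1 stand above 0 on both scales, and Hoxb13 moves from -0.13 to -0.42.

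Partners and cofactors of the members were measured next. Of 13 genes 9 were tested, 4 rose and 0 fell, also at an unadjusted p under 0.05, and their median was 0.20 beside 0.23 for all tested genes. Past the adjusted threshold 32.7% of all tested genes rose and 1.23% fell. The nuclear factor I genes Nfia and Nfib, whose products bind beside FOXA1, rose from 9.36 ± 0.835 to 13.3 ± 1.31 TPM and from 28.4 ± 3.00 to 39.1 ± 2.61 TPM (limma adjusted p = 0.00831 and 0.00609). Zfpm1, the FOG1 cofactor of GATA factors, rose from 12.4 ± 0.995 to 15.4 ± 0.656 TPM (limma adjusted p = 0.0270). Msx1, a homeodomain factor that can oppose DLX proteins, rose from 2.49 ± 0.664 to 5.08 ± 1.38 TPM (limma adjusted p = 0.0114). After median-ratio scaling 0 passed on the higher side (3 at an unadjusted p under 0.05), and Nfix passed on the lower side (-0.24, limma adjusted p = 0.0434). Of all tested genes 6.64% then passed on the higher side and 4.76% on the lower side. Arnt, the partner of SIM2, lay at 24.4 ± 1.59 and 21.1 ± 2.14 TPM (limma adjusted p = 0.105).

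Goblet-cell genes that SPDEF is known to drive in gut and airway were measured beside Spdef, whose mean was 33.1 TPM in both genotypes. Of 12 genes 8 were below the filter, and Agr3, Tff1 and Muc5ac were listed at 0 in all libraries. Of the 4 tested, 3 rose and 0 fell, also at an unadjusted p under 0.05, with a median of 1.67 beside 0.23 for all tested genes. Past the adjusted threshold 32.7% of all tested genes rose and 1.23% fell. The list was made with published results of these data known, and Fcgbp is among the top changed genes that the paper names. The count and median are therefore a description. Fcgbp, a mucus protein, lay at 34.8, 34.0, 24.6 and 22.7 TPM in hSKP2-KI replicates 1 to 4 and 3.47, 4.59, 3.93 and 4.23 TPM in WT. It rose without overlap, by 2.55 ± 0.15 (SE), or 2.30 after median-ratio scaling (limma adjusted p = 3.3e-05). Agr2, a disulfide isomerase of mucus-secreting cells, rose from 560 ± 65.7 to 789 ± 106 TPM (0.49 ± 0.11, limma adjusted p = 0.0101), and lay at 0.21 after scaling (adjusted p = 0.294). Clca1 rose from 2.24 ± 3.07 to 11.4 ± 7.53 TPM (2.13 ± 0.51, limma adjusted p = 0.0122) with overlapping groups, since WT replicate 2 was at 6.85 TPM. The remaining tested gene, Tff3, lay at 1.20 ± 1.04 (SE; limma adjusted p = 0.358) with overlapping groups.

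Genes beside the members on the chromosome were examined as well. Of the 18 nearest protein-coding genes in the RefSeq table, 1 on each side of each member, 17 were in the table and 13 were tested. Of these 3 rose in limma, where 32.7% of all tested genes did. On the lower side 0 fell, also at an unadjusted p under 0.05, where 1.23% of all tested genes were past the threshold. The 3 that rose were Rpn1 (0.25, limma adjusted p = 0.0325) beside Gata2, Apip (0.33, limma adjusted p = 0.0202) beside Ehf and Gpr37l1 (0.58, limma adjusted p = 0.0452) beside Elf3. After median-ratio scaling 0 passed on the higher side, with 1 at an unadjusted p under 0.05, and Ttc6, which overlaps Foxa1, passed on the lower side (-0.57, limma adjusted p = 0.0286). With no strand setting stated, reads from the stretch shared by Ttc6 and Foxa1 cannot be told apart. After quantile normalization 0 passed on the higher side and 2, Ttc6 and Hlcs, on the lower side, with 5 in either direction at an unadjusted p under 0.05. Dlx6, the paired distal-less gene 9.83 kb from Dlx5, was listed at 0 in 7 of the 8 libraries and at 0.139 TPM in hSKP2-KI replicate 4, and Sdhaf3 on the other side of Dlx5 lay at 4.31 ± 1.03 TPM in hSKP2-KI and 4.99 ± 1.13 in WT (SD, n = 4; limma adjusted p = 0.452). Hlcs, 2.27 kb from Sim2, lay at -0.06 ± 0.11 (SE; limma adjusted p = 0.659) with overlapping groups. After median-ratio scaling Hlcs was at -0.32 ± 0.10 (SE; limma adjusted p = 0.0694), with every hSKP2-KI library below every WT library, and after quantile normalization it was past the threshold (-0.36, limma adjusted p = 0.049). The noncoding gene 4930412O13Rik, which lies inside the span of Gata3, was at 20.7, 18.6, 20.2 and 22.6 TPM in hSKP2-KI replicates 1 to 4 and 8.36, 14.7, 11.7 and 11.7 TPM in WT replicates 1 to 4. It rose by 0.79 ± 0.14 (SE; limma adjusted p = 0.00371), and by 0.53 after median-ratio scaling (limma adjusted p = 0.0166), without overlap on either scale.

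For the members with a log2 difference beyond 1 in size, the genes with the most similar profile were found by the root mean square difference of mean-centred log2(TPM + 1) over the 8 libraries. Nearest to Dlx5 were 1810062G17Rik (0.375), Fam132a (0.401) and Mme (0.438). Mme, the cell-surface peptidase neprilysin, lay at 78.6, 96.4, 116 and 97.0 TPM in hSKP2-KI replicates 1 to 4 and 411, 525, 283 and 457 TPM in WT replicates 1 to 4. Nearest to Sim2 were Gm15471 (0.404), Parm1 (0.406) and Pappa2 (0.434). Parm1, a mucin-like gene, lay at 21.3, 24.1, 33.1 and 36.2 TPM in hSKP2-KI and 42.0, 71.6, 68.0 and 59.1 TPM in WT, and hSKP2-KI replicate 4 was the highest knock-in library for Parm1 as for Sim2. Likeness was sought among all tested genes, so these are descriptions.

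The cell type markers gave the makeup of the tissue in which these levels were read. The summed TPM of 11 epithelial markers, among them Epcam, Krt8 and Krt18, was 3118 to 3673 in hSKP2-KI and 2722 to 3080.3 in WT, and 2 of the 11 rose and 1 fell in limma. Among all tested genes, 32.7% rose and 1.23% fell as deposited, and 6.64% and 4.76% after median-ratio scaling. After that scaling 0 of the 11 epithelial markers rose, with 0 higher at an unadjusted p under 0.05, and 2 fell, namely Spint1 and Ap1m2. Set against the mean of these markers in each library, the log2 differences were -2.59 for Dlx5, -1.45 for Sim2, 0.53 for Gata2, 0.70 for Gata3, 0.36 for Sox9, 0.40 for Ehf, -0.18 for Foxa1, -0.15 for Elf3 and -0.12 for Spdef. All 7 markers of proximal luminal cells, the Krt4 and Psca expressing cells near the urethra, rose in limma, and 6 of 7 did after median-ratio scaling. Their sum was 511 to 952 TPM in hSKP2-KI and 196 to 246 in WT. Basal markers summed to 309 to 444 TPM in hSKP2-KI and 206 to 318 in WT, with 2 of 6 rising as deposited and 0 of 6 after scaling (1 at an unadjusted p under 0.05 in limma). Whether more proximal luminal cells had a part in the higher Gata2, Gata3, Sox9 and Ehf, or fewer distal secretory cells in the lower Dlx5 and Sim2, was not tested.

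Non-epithelial markers moved too, where 32.7% of all tested genes rose as deposited and 6.64% after median-ratio scaling. The sums were 793 to 1398 TPM in hSKP2-KI and 434 to 634 in WT for fibroblasts (7 of 7 tested markers rising). For smooth muscle they were 2656 to 4062 and 1802 to 2277 (6 of 6), and for endothelium 62.0 to 102 and 39.9 to 53.4 (7 of 9). For neuroendocrine cells they were 2.44 to 6.14 and 1.49 to 2.22 (1 of 1 tested). After median-ratio scaling 2, 3, 3 and 0 of these markers rose, with 7, 6, 6 and 1 higher at an unadjusted p under 0.05 in limma. Sums overlapped between genotypes for T cells, mast cells and Schwann cells. T cell sums were 6.86 to 9.88 and 3.54 to 7.61 TPM (2 of 3 tested rising). Mast cell sums were 12.0 to 30.2 and 7.72 to 17.3 TPM (3 of 4 tested). Schwann cell sums were 11.1 to 17.2 and 8.29 to 13.5 TPM (1 of 5 tested). After median-ratio scaling 0 markers of these 3 cell types rose, with 2, 3 and 0 higher at an unadjusted p under 0.05 in limma. Urothelial markers summed to 722 to 1017 TPM in hSKP2-KI and 398 to 663 in WT (3 of 3 tested rising, and 2 of 3 after scaling). Upk1a held most of these sums, at 651 to 983 TPM in hSKP2-KI and 390 to 648 in WT. It was not past the threshold after scaling (limma adjusted p = 0.322). Upk3a and Upk3b were below the filter. Seminal vesicle markers did not exceed a sum of 0.656 TPM in any library, and Svs2, Svs3a and Pate4 were listed at 0 in all 8. GATA3 is also a T cell factor and GATA2 a mast cell and endothelial factor, and the part of those cells in the Gata3 and Gata2 levels was not tested.

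**Figure D5:**
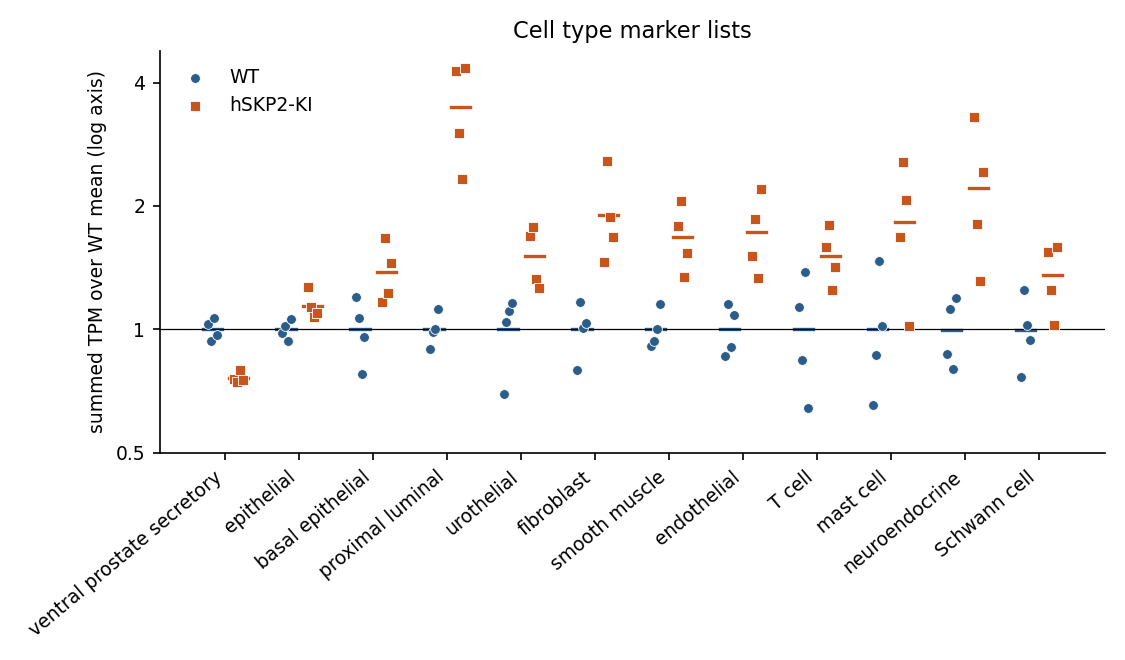
Summed TPM of 12 cell type marker lists in each library, divided by the WT mean of the list, on a log axis, with 1 point per mouse (n = 4 per genotype) and a bar at the mean; the seminal vesicle list is not drawn. The epithelial, proximal luminal, urothelial, fibroblast, smooth muscle, endothelial and neuroendocrine sums are higher in hSKP2-KI without overlap, the ventral secretory sum is lower, and the basal, T cell, mast cell and Schwann cell sums overlap.

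Knock-in libraries stood at the edge of their group for several of these genes. Sox9 was lowest in hSKP2-KI replicate 2, at 44.6 TPM. In hSKP2-KI replicate 4, Sim2 was at 3.90 TPM and Gata3 at 38.1, the highest of the knock-in group, while Foxa1 at 186 and Gata2 at 38.8 were the lowest. The same library had the highest Psca (209 TPM against 48.1 to 105 in the other knock-in libraries), Krt7 (125 TPM), Upk3a (12.5 TPM) and Tff3 (33.9 TPM). Not all proximal luminal and urothelial markers were highest there. Krt4 (118 TPM) and Upk1a (651 TPM) were the lowest of the knock-in group. Wfdc2 (236 TPM) and Ppp1r1b (180.2 TPM) were below hSKP2-KI replicate 1 (249 and 217 TPM). Without hSKP2-KI replicate 4 the log2 difference of Sim2 was -1.71 in place of -1.33.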

How the data were processed

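Poly-A selected RNA from the ventral prostate of 4 hSKP2-KI and 4 WT mice was sequenced with paired ends. The authors trimmed and mapped the reads with CLC software and deposited TPM values for each mouse; the submitters' processing notes name mm 10 and GRCm 38, and the annotation and strand setting are not given in the sources used here. TPM holds no read counts for a gene and only a planned depth is stated, so no counting interval was computed. The p-values set the difference between genotype means against the spread between mice, with variance information shared across genes.

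Genes whose TPM reached 1 or more in 4 or more of 8 samples were compared on log2(TPM + 1) from the deposited TPM, with limma 3.58.1 (mean-variance trend, R 4.3.3) and Benjamini-Hochberg adjustment over 13080 genes. The script was tested on simulated data. Alternatives were median-ratio scaling, quantile normalization, rescaling without the 20 most abundant genes, values relative to 11 epithelial markers, a pseudocount of 0.1, no filter, a mean TPM of at least 5, a replicate block and leaving out each library.

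Named genes were the 9 members, up to 4 genes past the threshold with the greatest change in each direction of each related list, Hoxb13, Trp63, Foxa2 and Elf5, neighbouring genes past the threshold, the 3 nearest profiles of members beyond a log2 difference of 1, and markers. Arnt, Nfix, Grhl1, Tfap2a, Bhlha15, Dlx6, Sdhaf3, Hlcs, Ttc6, 4930412O13Rik and Tff3 were named after their values were seen. So were the replicate 4 values of Psca, Krt7, Upk3a, Krt4, Upk1a, Wfdc2 and Ppp1r1b. Some genes that the rule names are not reported here. The members and lists were chosen with earlier results of these data known. Gene positions and promoters came from RefSeq (GRCm38.p6). Plots used Python 3.11.15 and matplotlib 3.10.9.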

Additional observations from a re-analysis of the deposited data

Results flagged for a closer look

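In 54 groups of 4 libraries (27 named genes in each genotype), 5 had a library standing apart from the other 3 by Dixon's criterion, which chance alone meets in about 5% of groups. Sox9 was at 44.6 TPM in hSKP2-KI replicate 2, below the 62.2 to 65.1 TPM of the other knock-in libraries. Elf3 was at 36.8 TPM in WT replicate 1, above the 32.9 to 33.3 TPM of the others. Foxa2 was at 0.345 TPM in hSKP2-KI replicate 4, where the others lay at 0.0344 to 0.0822 TPM, all of them low values. In WT replicate 2, Elf5 was at 0.929 TPM against 0.282 to 0.315 in the others, and Clca1 was at 6.85 TPM against 0.668 to 0.758.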

How the results depend on the processing

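The reads behind each TPM value were not given. The counting error of low values, such as those of Dlx5 and Sim2 in hSKP2-KI, could therefore not be computed. No member past the threshold changed sign under any alternative run that fitted it. Sim2 and Dlx5 were not fitted with a mean TPM of at least 5, where 4 members passed, 4 higher and 0 lower. With no filter 4 members passed, 3 higher and 1 lower. The count of tested genes past the threshold was 4433 as deposited, 1492 after median-ratio scaling, 1317 after quantile normalization, 1321 without the 20 most abundant genes and 1717 relative to epithelial markers (2993 to 4677 when 1 library was left out). In the same order of the first 3 scalings, the log2 differences were -0.34, -0.31 and -0.31 for Foxa1, 0.37, 0.41 and 0.41 for Gata2, 0.55, 0.58 and 0.59 for Gata3, 0.20, 0.25 and 0.23 for Sox9, -0.31, -0.27 and -0.28 for Elf3, 0.23, 0.28 and 0.27 for Ehf, and -0.28, -0.25 and -0.25 for Spdef. Dlx5 was at -3.07 without the 20 most abundant genes. With a pseudocount of 0.1, Sim2 was at -2.08 and Dlx5 at -3.49. Family relatives past the threshold numbered 0 under all 4 scalings, with 0, 0, 0 and 1 at an unadjusted p under 0.05 in limma. Other epithelial factors numbered 5, 3, 3 and 4 under these scalings and 7 with no filter. Partners and cofactors numbered 1, 0 and 0 under the first 3 scalings, with 5, 4 and 4 at an unadjusted p under 0.05 in limma. Of the SPDEF goblet genes 1 passed after quantile normalization. The alternatives for neighbouring genes were chosen after seeing the data: 3 passed as deposited, all higher, 1 passed with no filter and 1, lower, after median-ratio scaling, 2 passed after quantile normalization, both lower, and 0 passed without the 20 most abundant genes or relative to epithelial markers, with 4 and 2 at an unadjusted p under 0.05 in limma. The cause of these moves was not tested.

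When 1 library was left out, members past the threshold numbered 4 to 5, other epithelial factors 8 to 13, partners 3 to 4 and goblet genes 3 to 3. Family relatives numbered 1 to 2, with 2 only without hSKP2-KI replicate 3. Neighbouring genes numbered 0 to 3, with 0 without hSKP2-KI replicate 4, 3 without WT replicate 2 or hSKP2-KI replicate 2, and 1 without any of the other libraries. The log2 differences ranged from -0.11 to 0.00 for Foxa1, -1.71 to -1.04 for Sim2, -2.58 to -2.29 for Dlx5, 0.57 to 0.72 for Gata2, 0.75 to 0.89 for Gata3, 0.41 to 0.60 for Sox9, -0.09 to 0.02 for Elf3, 0.45 to 0.59 for Ehf and -0.06 to 0.06 for Spdef. With a replicate block, 6 members passed, the same genes as without it, and 5128 of all tested genes. Same-numbered mice did not deviate together, with correlations of 0.221, -0.109, 0.167 and -0.0142 for replicates 1 to 4, so the numbers were not taken as pairs.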
